A study of Mus musculus with 4 samples.

Results

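Polycomb group proteins form the chromatin complexes PRC1 and PRC2, and 10 of their genes were examined for peaks of phosphorylated ATF2 in mouse haematopoietic stem cells. The genes were chosen by name for their roles in blood stem cell self-renewal, with earlier results of these data known. From PRC1 came Bmi1, Ring1, Rnf2, Pcgf1, Cbx7 and Cbx8, and from PRC2 Ezh1, Ezh2, Eed and Suz12. They are 10 of 21883 protein-coding genes on chromosomes 1 to 19, X and Y in the RefSeq annotation of the files' build. Wild-type C57BL/6J mice, of an age and treatment that the labels leave out, gave the bone marrow. From it CD48-CD150+ LSK cells were sorted, where LSK stands for lineage-negative, Sca-1-positive and Kit-positive. CUT&Tag, in which an antibody directs a transposase to chromatin so that nearby DNA is cut and tagged, was run on 2000 to 5000 cells per library with 17 to 20 PCR cycles. Of the 4 libraries, 2 used an antibody to ATF2 phosphorylated at T69/71 and 2 an antibody to ATF2 phosphorylated at S490/498. The titles give the first site as T69/71 and the antibody field as T67/71. Whether replicates were separate mice is not in the labels, so the spread between them may be technical.

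PRC1 attaches ubiquitin to histone H2A, and PRC2 methylates a lysine of histone H3 that the CBX proteins of PRC1 recognise. Together they keep lineage and cell cycle inhibitor genes such as Cdkn2a silent, and BMI1 is known as a requirement for self-renewal of adult blood stem cells. ATF2 is a leucine-zipper factor of the ATF/CREB family. Its consensus site, the cAMP response element, reads TGACGTCA, and TGACG is the core of that site.

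The libraries were unequal. The lists held 12464 and 14716 peaks on these chromosomes for T69/71 replicates 1 and 2, 7132 for S490/498 replicate 1 and 435 for S490/498 replicate 2. The lowest local background recovered among the peaks of each list was 0.117, 0.105, 0.0874 and 1.52 fragments in the same order. S490/498 replicate 2 thus stood apart in both measures. This lowest value is taken over peaks only and is no direct measure of genome-wide coverage. An IgG control was not analysed here, and background common to both antibodies was not tested. Of the genes for the sort markers, Kit had a peak in 3 libraries, Slamf1 in 1, and Ly6a and Cd48 in none. Ptprc, which is not among the markers of the sort named above, had a peak in 1. Over all protein-coding genes, 19.5% had a peak in at least 3 libraries and 51.1% in none. A peak of a transcription factor is no measure of expression.

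The sequences upstream of the start are shown for Cbx8, Rnf2, Suz12, Eed and Ezh2, which had a summit within 1 kb of the start in 3 libraries and upstream of it in at least 1, and for Bmi1 and Ezh1, which had no peak in any library. Each is the 250 bases before the annotated start, from RefSeq (GRCm38.p6, the mm10 assembly), on the gene's own strand and 5′ to 3′. Capitals mark every TGACG on either strand, and the full TGACGTCA where it occurs. Suz12 (chr11:79992856-79993105) and Bmi1 (chr2:18676768-18677017) lie on the plus strand. Cbx8 (chr11:119040914-119041163), Rnf2 (chr1:151500992-151501241), Eed (chr7:89980977-89981226), Ezh2 (chr6:47595031-47595280) and Ezh1 (chr11:101226464-101226713) lie on the minus strand. Most of the Ezh2 window lies within the annotated range of the gene, whose upper end is 47595270.
Cbx8: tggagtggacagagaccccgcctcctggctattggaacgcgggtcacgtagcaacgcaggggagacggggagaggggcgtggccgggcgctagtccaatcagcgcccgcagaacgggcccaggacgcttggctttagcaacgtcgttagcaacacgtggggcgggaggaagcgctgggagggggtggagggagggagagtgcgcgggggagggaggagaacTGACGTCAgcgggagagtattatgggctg
Rnf2: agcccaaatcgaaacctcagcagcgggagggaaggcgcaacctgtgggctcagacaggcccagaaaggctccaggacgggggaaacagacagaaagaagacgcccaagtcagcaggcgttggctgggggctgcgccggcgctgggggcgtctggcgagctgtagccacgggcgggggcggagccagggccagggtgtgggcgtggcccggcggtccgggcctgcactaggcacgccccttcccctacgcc
Suz12: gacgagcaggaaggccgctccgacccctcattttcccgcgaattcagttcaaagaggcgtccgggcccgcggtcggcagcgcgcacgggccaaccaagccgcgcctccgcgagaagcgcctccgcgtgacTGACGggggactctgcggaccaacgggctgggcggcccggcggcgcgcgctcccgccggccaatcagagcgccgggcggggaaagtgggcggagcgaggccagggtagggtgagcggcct
Eed: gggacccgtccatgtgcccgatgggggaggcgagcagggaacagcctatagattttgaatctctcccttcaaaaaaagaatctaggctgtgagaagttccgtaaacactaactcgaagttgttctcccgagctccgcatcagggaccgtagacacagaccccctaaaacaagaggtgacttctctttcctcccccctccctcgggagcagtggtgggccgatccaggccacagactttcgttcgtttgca
Ezh2: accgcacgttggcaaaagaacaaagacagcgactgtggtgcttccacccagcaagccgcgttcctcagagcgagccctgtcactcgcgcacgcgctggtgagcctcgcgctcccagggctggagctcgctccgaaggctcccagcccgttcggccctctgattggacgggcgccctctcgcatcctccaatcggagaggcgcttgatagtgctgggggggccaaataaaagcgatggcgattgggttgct
Bmi1: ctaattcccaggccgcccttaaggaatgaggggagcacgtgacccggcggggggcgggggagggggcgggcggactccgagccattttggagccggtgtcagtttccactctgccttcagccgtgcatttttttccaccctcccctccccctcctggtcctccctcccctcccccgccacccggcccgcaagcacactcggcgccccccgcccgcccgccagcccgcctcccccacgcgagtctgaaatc
Ezh1: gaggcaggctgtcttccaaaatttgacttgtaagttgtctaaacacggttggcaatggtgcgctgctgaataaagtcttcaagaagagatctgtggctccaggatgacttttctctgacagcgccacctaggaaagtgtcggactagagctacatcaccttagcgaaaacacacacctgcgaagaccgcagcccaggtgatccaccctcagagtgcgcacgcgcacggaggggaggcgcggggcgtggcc
Only the Cbx8 sequence holds TGACGTCA, 22 to 29 bases before the start. Suz12 holds a single TGACG, 116 to 120 bases before the start, and the sequences of Rnf2, Eed, Ezh2, Bmi1 and Ezh1 hold none. Ring1 is not printed because its summits lay downstream of its start. Its window (chr17:34024681-34024930, minus strand) has 1 TGACG, which lay outside the Ring1 peak in both T69/71 libraries and in S490/498 replicate 1. The window of Cbx7 has none, and the table has no entry for Pcgf1. Among 21262 such windows of protein-coding genes, 1.92% hold TGACGTCA and 20.2% hold TGACG. The AP-1 site TGANTCA (6.13% of windows) and the ETS core CGGAAG (17.1%), searched on both strands, were not found in the windows of the 9 members that have one. The TGACG count includes those inside TGACGTCA, and a match of letters is not a binding site.

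A gene was counted when a peak summit lay over it or within 1 kb of either end. By this rule 7 of the 10 genes had a peak in T69/71 replicate 1, against 37.3% of all protein-coding genes, and 7 in T69/71 replicate 2, against 39.0%. In S490/498 replicate 1 there were again 7, against 24.7%, and in S490/498 replicate 2 there were 0, against 0.859%. Ring1, Rnf2 and Cbx8 of PRC1 and Ezh2, Eed and Suz12 of PRC2 had a peak in both T69/71 libraries and in S490/498 replicate 1. That makes 6 of 10, against 19.4% of all protein-coding genes, and no member had a peak in both S490/498 libraries, against 0.489%. Pcgf1 had a peak in T69/71 replicate 1 and S490/498 replicate 1, Cbx7 in T69/71 replicate 2 only, and Bmi1 and Ezh1 in none, as did 51.1% of protein-coding genes. The 10 genes were chosen by name with earlier results of these data known, so these counts are a description and carry no test.

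**Figure D1:**
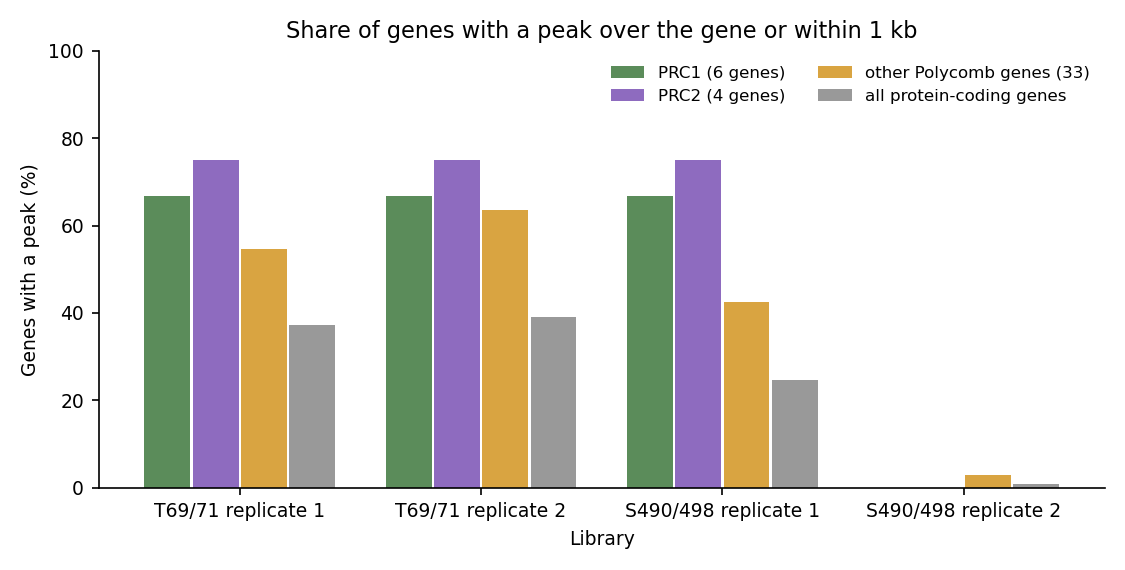
Share of genes with a peak over the gene or within 1 kb of an end (y axis, percent) in each of the 4 libraries (x axis), for the 6 PRC1 genes, the 4 PRC2 genes, 33 other Polycomb genes and all protein-coding genes. PRC1 stands at 66.7% and PRC2 at 75% in 3 libraries, and both stand at 0 in S490/498 replicate 2.

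The values that follow are the authors' fold enrichments, a ratio of fragments at a summit to the background around it in the same library. To both numbers 1 is added before the division, so a fold is lower than the plain ratio, most of all at low background. The brackets give an exact 95% Poisson interval from the number of fragments at the summit; it covers counting error only. Each fold refers to its own library, so folds of different libraries are set side by side as a description. The 21 member peaks rested on 3 to 37 fragments at the summit, with a median of 10.

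Ring1 and Rnf2 encode the RING-finger ubiquitin ligases, the catalytic subunits of PRC1. At Ring1 (chromosome 17, 34020792 to 34024680) the fold was 7.90 (5.22 to 11.5) and 5.21 (2.95 to 8.65) in T69/71 replicates 1 and 2 and 8.78 (5.32 to 13.8) in S490/498 replicate 1. The middle value of these, T69/71 replicate 1, rested on 25 fragments over a local background of 2.29. T69/71 replicate 2 was the lowest of the 3, at 13 fragments, and all intervals overlapped. The Ring1 summits also lay within 1 kb of the microRNA genes Mir219a-1 and Mir219c. At Rnf2 (chromosome 1, 151469398 to 151500991) the fold was 5.74 (2.74 to 11.1) and 7.16 (3.66 to 13.0) with T69/71 and 6.11 (2.91 to 11.8) in S490/498 replicate 1, on 7, 9 and 7 fragments. The Rnf2 values thus lay closer together than those of Ring1, at lower fragment numbers.

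Bmi1 and Pcgf1 encode alternative PCGF partners of the ligases, which set the kind of PRC1: BMI1 in canonical PRC1 and PCGF1 in a variant complex with BCOR and KDM2B. Bmi1 (chromosome 2, 18677018 to 18686629) had no peak in any list. Its nearest summit was 2.81 kb above the gene in T69/71 replicate 2, with a fold of 4.17, and lay within 1 kb of the predicted gene Gm46725. In T69/71 replicate 1 and S490/498 replicate 1 the nearest summit was 68.3 kb below the gene. At Pcgf1 (chromosome 6, 83077552 to 83080855) the fold was 6.17 (3.05 to 11.5) in T69/71 replicate 1 and 5.98 (2.85 to 11.5) in S490/498 replicate 1. The peaks lay inside the gene, 686 and 845 bp from its lower end, and did not overlap each other, with 91 bp between them. In T69/71 replicate 2 the nearest summit was 20.7 kb from Pcgf1.

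Cbx7 and Cbx8 encode chromodomain subunits that read the PRC2 mark; CBX7 is known for self-renewal of blood stem cells and CBX8 for more differentiated progenitors. At Cbx8 (chromosome 11, 119036303 to 119040913) the fold was 10.6 (7.54 to 14.5) and 10.0 (6.61 to 14.6) with T69/71 and 9.04 (5.75 to 13.6) in S490/498 replicate 1. Its summits had 37, 25 and 21 fragments, and 92.9%, 89.0% and 85.5% of the peaks in each list had a lower −log10 q. Cbx8 had the highest mean rank of the 10 genes, and the TGACGTCA printed above lay inside the peak in each of these 3 libraries. The summits were 108, 238 and 6 bp from its centre. Cbx7 (chromosome 15, 79915804 to 79971143) had a single peak, in T69/71 replicate 2, with a fold of 3.30 (1.33 to 8.05) on 3 fragments. It lay within the annotated range of the gene, 8452 bp upstream of the start given in the promoter table, and 0.495% of that list ranked lower.

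**Figure D2:**
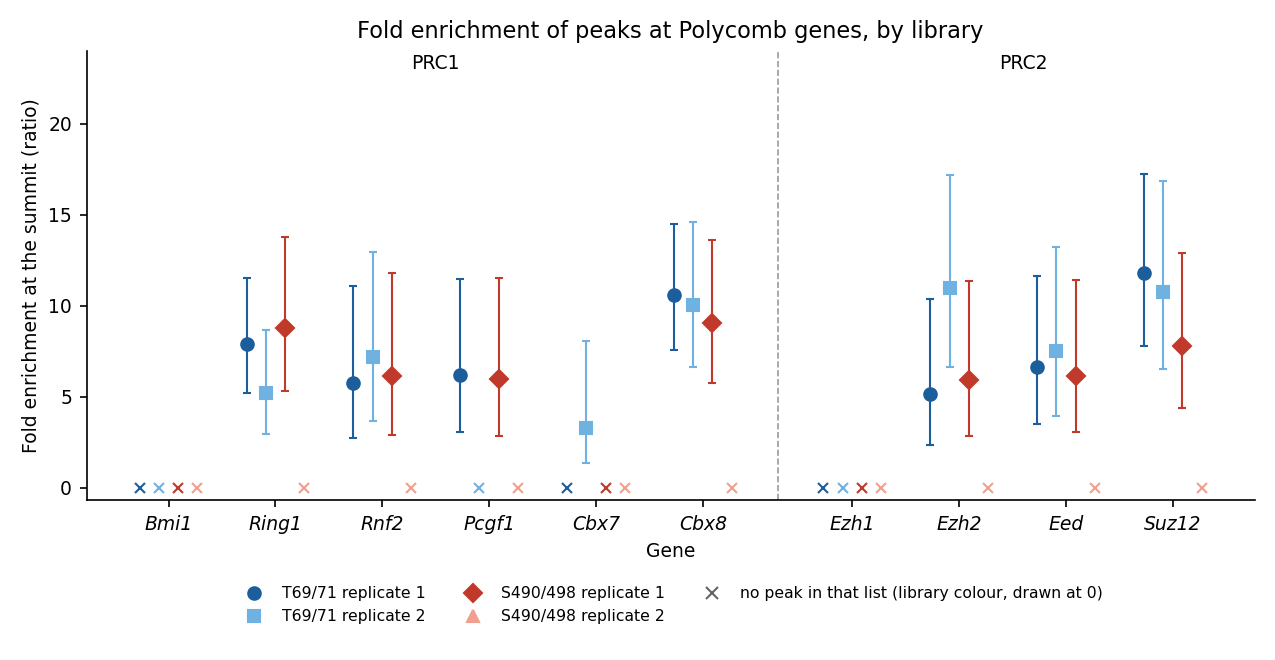
Fold enrichment at the summit (y axis, ratio) of the peak at each of the 10 Polycomb genes (x axis), by library; bars are exact 95% Poisson intervals of the summit fragments and crosses are lists without a peak. Cbx8 and Suz12 lie highest in T69/71 replicate 1, at 10.6 and 11.8, and S490/498 replicate 2 has no point.

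Ezh1 and Ezh2 encode the alternative methyltransferases of PRC2. At Ezh2 (chromosome 6, 47530274 to 47595270) the fold was 5.16 (2.36 to 10.4) and 10.9 (6.63 to 17.1) in T69/71 replicates 1 and 2 and 5.90 (2.81 to 11.4) in S490/498 replicate 1, on 6, 17 and 7 fragments. T69/71 replicate 2 was thus the highest, above both its own replicate and the other antibody, which lay next to each other, and the intervals overlapped. The Ezh2 summits also lay within 1 kb of the end of the long noncoding RNA gene F830010H11Rik and cannot be assigned to either gene. Ezh1 (chromosome 11, 101191115 to 101226463) had no peak in any list. The nearest summits were 6.03 kb above the gene in T69/71 replicate 1, with a fold of 5.59, 19.7 kb below it in T69/71 replicate 2 and 51.9 kb above it in S490/498 replicate 1.

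Eed and Suz12 encode the core subunits that bind the methylated histone and hold the complex together. At Eed (chromosome 7, 89954654 to 89980976) the fold was 6.60 (3.48 to 11.6) and 7.49 (3.94 to 13.2) with T69/71 and 6.13 (3.03 to 11.4) in S490/498 replicate 1, on 10, 10 and 8 fragments. The fold was similar in the 3 libraries, but the place was not: the peak of T69/71 replicate 2 lay further into the gene and did not overlap that of S490/498 replicate 1. At Suz12 (chromosome 11, 79993106 to 80034123) the fold was 11.8 (7.80 to 17.2) and 10.7 (6.51 to 16.8) with T69/71 and 7.75 (4.39 to 12.9) in S490/498 replicate 1, on 25, 17 and 13 fragments. Of their lists, 90.1%, 85.0% and 71.3% of peaks had a lower −log10 q. The TGACG of Suz12 lay 102 bp from the summit, inside the peaks of T69/71 replicate 1 and S490/498 replicate 1 and outside that of T69/71 replicate 2.

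The peaks of the 6 genes lay at their starts. All 18 summits fell within 465 bp of the annotated start, 13 upstream and 5 downstream, and none lay at the other end of the gene. For Ezh2 this start is the one that its printed sequence precedes, and it lies inside the annotated range of the gene. The Ezh2 summits, counted as upstream, lay inside that range, 120, 135 and 202 bp below its upper end. All protein-coding genes with 1 annotated start and a peak at an end were placed by their strongest end peak. It lay within 1 kb of the start and not of the other end in 93.1%, 92.3% and 93.0% of them. These shares are for T69/71 replicates 1 and 2 and S490/498 replicate 1, and a weaker peak at the other end was not counted. At Suz12 the summit was the same base in all 3 libraries, 16 bp upstream of the start; 37 of 3118 genes with an end peak in these libraries (1.19%) shared 1 summit base in this way. The summits spread over 82 bp at Ezh2, 92 bp at Ring1, 219 bp at Rnf2, 231 bp at Cbx8 and 534 bp at Eed, against a median of 99 bp over those 3118 genes. By the annotated starts used here, Ring1 alone had every summit downstream of its start, at 198, 137 and 106 bp.

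**Figure D3:**
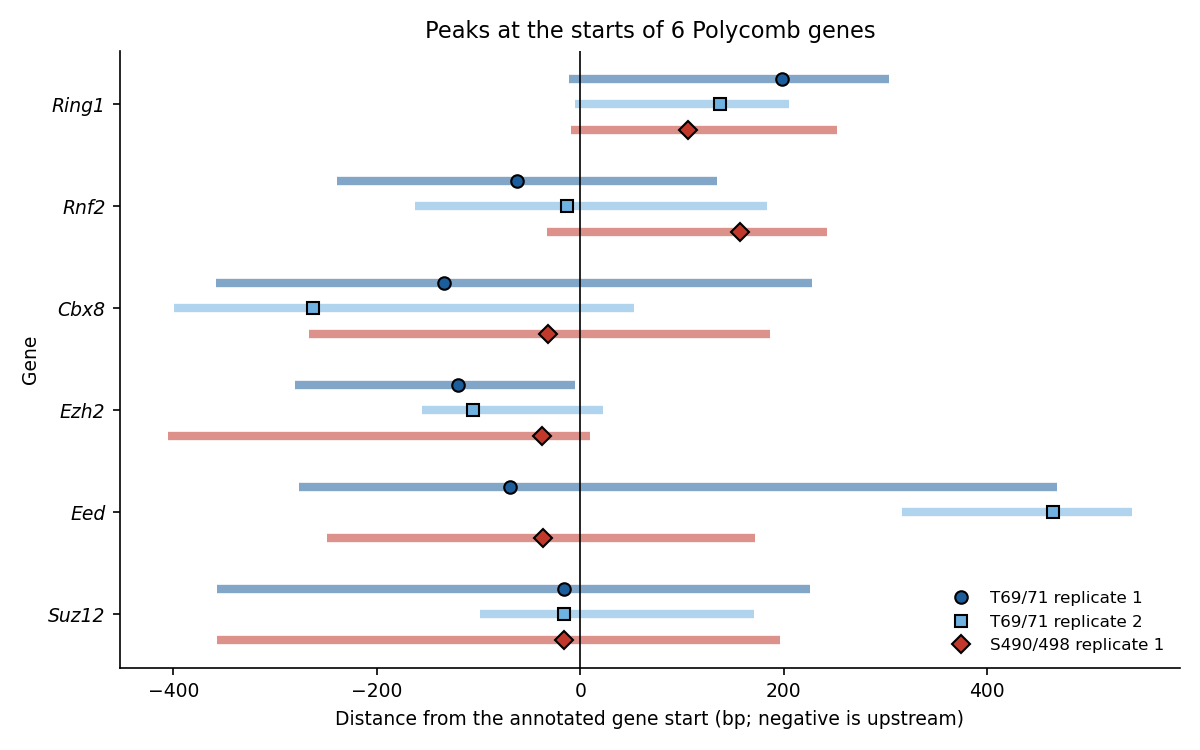
Peaks (bars) and their summits (symbols) relative to the annotated gene start (x axis, bp, negative is upstream) for the 6 Polycomb genes with a peak in both T69/71 libraries and S490/498 replicate 1. The summits of Suz12 coincide 16 bp upstream of the start, and the T69/71 replicate 2 peak of Eed lies 465 bp downstream.

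The complexes were then compared. In T69/71 replicates 1 and 2 and in S490/498 replicate 1, 4 of 6 PRC1 genes and 3 of 4 PRC2 genes had a peak, a difference of -8.33 percentage points for PRC1 minus PRC2 in each, which is smaller than the change that 1 gene makes in either complex. The PRC1 genes were shorter, with a median of 7.11 kb against 38.2 kb for PRC2 and 17.2 kb for all protein-coding genes, but every member peak other than that of Cbx7 lay within 1 kb of an end. Within 1 kb of an end the counts were 7, 6, 7 and 0 in the order used above, against 27.5%, 27.9%, 17.9% and 0.224% of all protein-coding genes. Among the genes with a peak, the median fold was 7.03 for PRC1 and 6.60 for PRC2 in T69/71 replicate 1, and 6.19 and 10.7 in T69/71 replicate 2. In S490/498 replicate 1 it was 7.45 and 6.13, so which complex had the higher median changed from library to library. The PRC1 genes behind it changed too. In T69/71 replicate 2 they included Cbx7, with a fold of 3.30 on 3 fragments, and lacked Pcgf1. Each median rests on 3 or 4 genes. The median over members with a peak at an end was 6.60, 8.74 and 6.13 in the 3 libraries, against 7.20, 7.64 and 6.91 over all protein-coding genes with one.

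Both antibodies were compared over the 4 libraries. The number of members with a peak was on average 3.5 higher with T69/71 than with S490/498, which did not pass an exact two-sided permutation test (exact p = 1, where 2 libraries against 2 allow no p below 0.333). Without S490/498 replicate 2 the difference was 0. The PRC1 share minus the PRC2 share differed by -4.17 percentage points between the antibodies (exact two-sided permutation p = 1), and by 0 without S490/498 replicate 2. It was -12.5 with gene ends only and -16.7 with the T69/71 lists shortened to the length of S490/498 replicate 1, where the antibodies differed by 1.5 members. These are the 2 comparisons made, and adjustment would leave both at 1. The nearest summits of S490/498 replicate 2 lay 56.6 kb from Ring1, 58.0 kb from Ezh2 and 3308 to 7815 kb from the other members.

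The peak pattern most like that of Cbx8, over the 3081 other genes with an end peak in the same 3 libraries and none in S490/498 replicate 2, was that of the neighbours Arhgap30 and Nectin4, which share their peak. Their distance from Cbx8 in log2 fold over 3 libraries was 0.05, with folds of 10.3, 9.90 and 8.90. Golga2 followed at 0.06, with folds of 10.6, 10.2 and 8.69.

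The other genes of the pathway were taken from a list of 33, also chosen with earlier results of these data known. By the same rule 18 had a peak in T69/71 replicate 1, 21 in T69/71 replicate 2, 14 in S490/498 replicate 1 and 1 in S490/498 replicate 2, against the 37.3%, 39.0%, 24.7% and 0.859% of all protein-coding genes given above. Both T69/71 libraries had a peak at 16 of the 33, against 29.4% of all protein-coding genes, and 8 had one within 1 kb of an end in both, against 21.1%.

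Of 8 accessory or histone-binding PRC2 genes, 5 had a peak in at least 3 libraries and 0 lacked one in every library. Of 19 other PRC1 genes, 5 had a peak in at least 3 libraries and 9 in none. Over all protein-coding genes the shares were 19.5% in at least 3 libraries and 51.1% in none, and the difference between the 2 groups was not tested. Jarid2, which encodes a PRC2 cofactor, was the 1 gene of the 33 with a peak in all 4 libraries. That peak lay inside the gene at chr13:44869572-44870023, with folds of 21.9 and 33.9 in T69/71 replicates 1 and 2, 16.3 in S490/498 replicate 1 and 15.1 in S490/498 replicate 2. It began at the same base in all 4 lists, as did 7 of the 435 peaks of S490/498 replicate 2. Whether an IgG control would show it too was not tested. Rbbp4, a histone-binding subunit, had folds of 13.5, 11.9 and 13.6 at its start, which Zbtb8os shares. Phf19, which binds a methylated histone, had a peak inside the gene with folds of 14.1, 15.2 and 12.1. Aebp2 had highest folds of 6.93, 6.45 and 5.22, not all at 1 site, and Phf1 had 9.62, 5.04 and 5.65 at an end that lies within 1 kb of Kifc5b. Rbbp7 had a peak in both T69/71 libraries, and Mtf2 and Epop had one in T69/71 replicate 2.

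Among other PRC1 genes, Mga, which encodes a DNA-binding scaffold of a variant PRC1, had folds of 12.1 and 11.8 with T69/71 and 9.13 in S490/498 replicate 1. Pcgf2, the closest relative of Bmi1, had 7.14, 12.1 and 5.65. The site lay within 1 kb of the proteasome gene Psmb3 and of n-TNgtt8, which is not protein-coding, and cannot be assigned to any of them. Pcgf5 had 7.33, 7.53 and 7.94 at 1 of its inner annotated starts. Bcor and Kdm2b, the partners of PCGF1, had peaks inside the gene in both T69/71 libraries and S490/498 replicate 1. The highest folds were 6.40, 6.25 and 5.56 at Bcor and 6.82, 5.39 and 4.67 at Kdm2b, in neither gene all at 1 site. At the site that each gene had in all of these libraries, the folds were 6.40, 5.53 and 5.56 at Bcor. At Kdm2b they were 4.83, 4.19 and 4.67. Phc2 had peaks in both T69/71 libraries, Phc1 and L3mbtl2 in T69/71 replicate 1 and Pcgf3 and Bcorl1 in T69/71 replicate 2. The chromodomain genes Cbx2 and Cbx6 had no peak in any list, nor had Pcgf6, Phc3, Rybp, Yaf2, Scmh1, Scml2 and E2f6.

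PR-DUB, the enzyme that removes ubiquitin from histone H2A, had peaks at its catalytic subunit Bap1 in 3 libraries, with highest folds of 9.71, 4.21 and 7.32. The 7.32 of S490/498 replicate 1 lay at the other end of the gene, where the fold at the start was 5.20, and the others lay at the start. The start of Bap1 lies within 1 kb of Phf7 and its other end within 1 kb of Dnah1. The PR-DUB cofactor genes Asxl1 (4.85 and 10.1 in the T69/71 libraries) and Asxl2 (11.3 in T69/71 replicate 2 and 8.59 in S490/498 replicate 1) each had a peak in 2 libraries, and Asxl3 in none. The summits of Asxl1 also lay within 1 kb of 2500004C02Rik, and those of Asxl2 within 1 kb of 1110002L01Rik. Both genes of the demethylases that remove the PRC2 mark had a peak in 3 libraries. Kdm6a had folds of 9.91, 12.9 and 5.74 near its annotated start, and Kdm6b had several peaks inside the gene, with highest folds of 13.8, 12.3 and 11.8. These were not all at 1 site: the site of the 13.8 and 11.8 had a fold of 9.07 in T69/71 replicate 2. Cdkn2a, the classical Polycomb target, had no peak in any list.

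**Figure D4:**
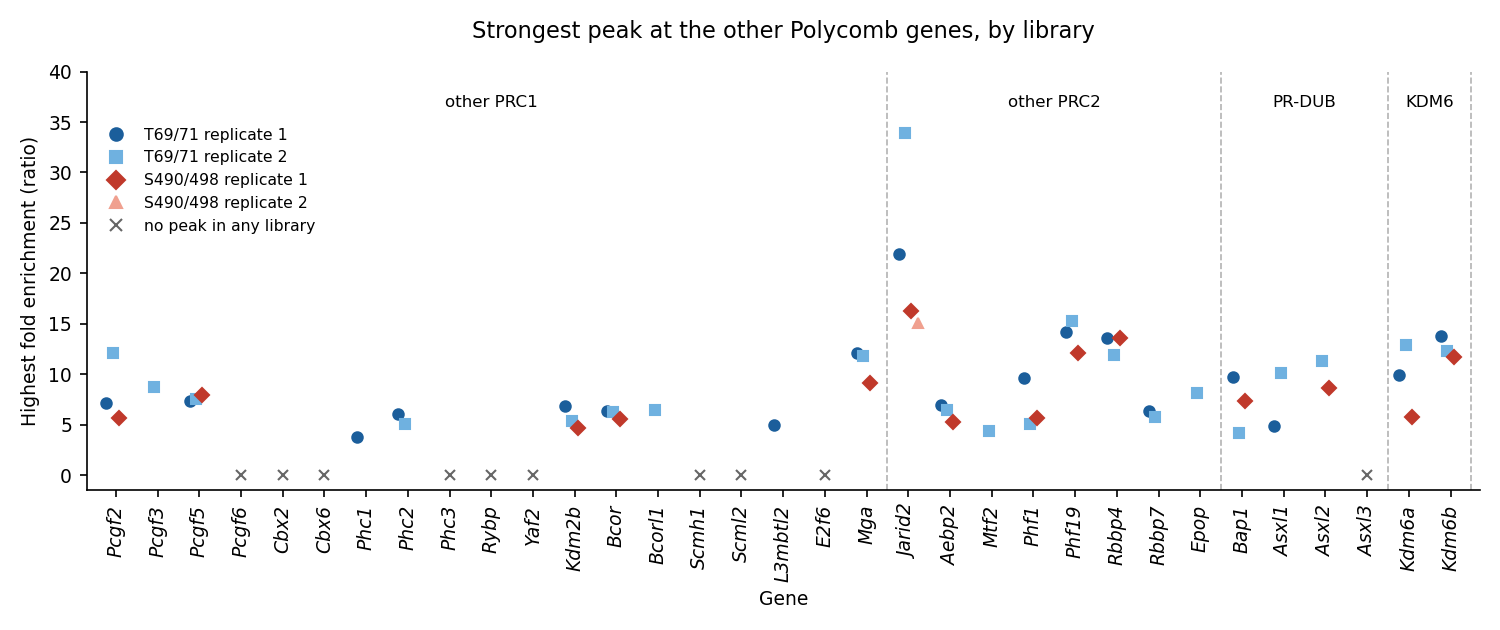
Highest fold enrichment (y axis, ratio) among the peaks at each of 33 other Polycomb genes (x axis, grouped by role; KDM6 marks the demethylases), by library; a gene with a peak in no library has a cross at 0. Jarid2 reaches 33.9 in T69/71 replicate 2 and is the gene with a point for S490/498 replicate 2.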

How the data were processed

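Peak lists from 4 CUT&Tag libraries were used, 1 list per library. Reads went through FastQC 0.11.5, Bowtie2 2.2.9 (mm10), MACS2 and ChIPseeker, per the submitters' processing notes. Peak calling settings and duplicate handling were not given in the sources used here. The deposited values of a peak are its fold enrichment, which is a ratio to the local background, its −log10 p and −log10 q at the summit, and a score, 10 times −log10 q without decimals for all but 1 to 7 peaks per list, which was not used. The lowest deposited −log10 q per list was 1.31 to 1.39, which corresponds to a q threshold of 0.05.

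Positions were converted to 1-based, and a summit is column 2 plus column 10. A gene was counted when a summit lay over it or within 1 kb of either end (RefSeq, GRCm38.p6). Fragments at the summit were recovered from fold and p, as (pileup + 1)/(background + 1) and a Poisson tail. The match was within 0.001 of the deposited −log10 p for 99.8% to 100% of peaks on the chromosomes. The recovery was also tested on simulated data, which did not cover the 3 fragments of Cbx7 or backgrounds as high as the 2.29 at Ring1. The lists give no read totals. Python 3.11.15, pandas 2.3.3 and scipy 1.17.1 were used. The members and lists were chosen with earlier results of these data known. Named genes were all members, genes sharing their summits, up to 5 genes per role of the wider list of 33 by number of libraries and mean rank, and the 3 genes nearest to the leading member in log2 fold. The other genes of that list were named after their values were seen. A further gene, outside the 33, is not reported here. Windows of 500 bp and 2 kb, gene ends only, any overlap, −log10 q of at least 5, equal list lengths and left-out libraries were tried as alternatives.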

Additional observations from a re-analysis of the deposited data

How the results depend on the processing

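Windows of 500 bp or 2 kb, gene ends only, any overlap of the peak and −log10 q of at least 5 left the counts within 1.5 times. The difference between the antibodies was 3 members with gene ends only and with −log10 q of at least 5, and 3.5 with the other settings named. With −log10 q of at least 5, 4 members had a peak in both T69/71 libraries in place of 6, as Rnf2 and Ezh2 were lost in replicate 1. With the T69/71 lists shortened to the length of S490/498 replicate 1, 3 members had a peak in both T69/71 libraries and 3 in at least 3 libraries, namely Cbx8, Eed and Suz12. There 5, 5, 7 and 0 members had a peak in the 4 libraries, and the antibodies differed by 1.5 members in place of 3.5. The PRC1 share minus the PRC2 share differed between the antibodies by -12.5 percentage points with gene ends only and with −log10 q of at least 5 and by -16.7 at equal list length, in place of -4.17 (exact permutation p from 0.667 to 1). Leaving out 1 library at a time, the difference in members between the antibodies ranged from 0 to 7, and that of the PRC1 share minus the PRC2 share from -8.33 to 0 percentage points; 0 was reached without S490/498 replicate 2. The count for T69/71 was 7 in either library alone, and that for S490/498 0 or 7. Members with a peak in at least 3 libraries ranged from 0 to 6, as Cbx8 and the 5 others have no peak in S490/498 replicate 2. With the replicate number as a block the difference stayed at 3.5 members (exact permutation p = 1). The labels leave out whether libraries of the same number share a mouse or day. Across 155 regions with a peak in all 4 lists, the difference in log2 fold between replicates 1 and 2 of one antibody correlated with that of the other at r = 0.33, which does not settle whether the numbers pair the libraries. The peaks at members rest on few fragments, so a member without a peak may carry signal that was not detectable at this depth.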

Other observations

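Across all protein-coding genes, TGACGTCA stood in 7.29% of the 2592 upstream windows that a peak overlapped in both T69/71 libraries and S490/498 replicate 1, and in 0.79% of the 14811 windows without a peak in any library. For TGACG the shares were 44.9% and 13.5%. The ETS core CGGAAG also stood in a larger share of the windows with peaks, at 34.1% against 10.5%. The AP-1 site TGANTCA went the other way, at 2.93% against 7.42%. The windows with peaks were richer in CpG, with a median of 20 against 5 in 250 bases. Base composition thus differed along with the motifs, and the part of base composition was not tested. The windows of Bmi1 and Ezh1, which had no peak, held 21 and 14 CpG, and those of Suz12, Ring1, Ezh2, Cbx8, Rnf2 and Eed held 37, 30, 23, 22, 20 and 12.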
